A study of Mus musculus with 6 samples.

Results

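The mitochondrial ribosome has its own proteins, all encoded in the nucleus, and this account covers their genes in migratory type 1 conventional dendritic cells (cDC1) with and without anti-CD40 stimulation. The genes were chosen by name, as those whose symbol starts with Mrpl or Mrps followed by a number and whose probe set carried that symbol alone. Of 12780 measured genes, 76 met the rule: 48 with an Mrpl and 28 with an Mrps symbol. They came from 83 probe sets, and where a gene had more than 1 the brighter was used. RefSeq lists 78 protein-coding mouse genes that match the rule, and the other 2, Mrpl53 and Mrps27, were not analysed here.

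All samples came from C57BL/6 wild-type (WT) mice, and no label gives their age. Cells of both groups were sorted from skin draining lymph nodes as B220-, CD326-, MHC II high, CD11c intermediate, XCR1+, Sirpa- and CD40+ cells. The groups were 3 unstimulated samples and 3 samples stimulated with an antibody against CD40, the receptor through which helper T cells license dendritic cells. Each sample was hybridised to 1 Affymetrix array, read in 1 colour, after labelling with the WT Pico kit, which is made for minute RNA inputs. No label gives the antibody's dose, its time of action, or whether animals or cultured cells received it. The labels call the samples biological replicates without naming the mice, so p-values cover the spread among these 6 arrays only, part of which may be technical.

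Mitochondria translate a small set of messages, all of them for core subunits of the respiratory chain and ATP synthase. They do so on a ribosome that descends from a bacterial one: its proteins are in part relatives of bacterial ribosomal proteins and in part additions found only in mitochondria. The proteins are made in the cytosol, imported, and assembled with mitochondrial ribosomal RNA. By textbook assignment, 50 of the 76 genes encode large-subunit proteins, 30 with a bacterial counterpart and 20 specific to mitochondria, among the latter Mrps30 and Mrps18a despite their names. A further 25 encode small-subunit proteins, 16 with a bacterial counterpart and 9 specific to mitochondria. The last, Mrps36, carries the family's name but is now known as a component of the alpha-ketoglutarate dehydrogenase complex.

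Promoter sequences are shown first, because many genes of this family are known targets of nuclear respiratory factor 1 (NRF1), of the ETS factor GABP and of YY1. RefSeq promoters from 250 bases before to 50 bases after the start of the gene (build GRCm38.p6) were matched for 67 of the 76 genes. In the sequences below, capitals mark GCATGCGC (NRF1), CCGGAAG (ETS, GABP) and AAGATGGC (YY1) on either strand, and all other letters are lower case. Mrps18b and Mrpl17 are shown as genes with a large moderated statistic towards stimulation, and both hold NRF1 and ETS letters. Mrpl50, with the largest such statistic, and Mrpl55 are not shown, and their windows hold none of these letters. Mrps22 is shown as the gene with the lowest statistic and Mrpl52 as one of the most variable. Mrps12 is shown as the protein of the decoding centre. Mrpl46 and Mrps11 are shown because they start 42 bases apart on opposite strands, so that their windows overlap.
Mrps18b, chr17:35916391-35916690, minus strand: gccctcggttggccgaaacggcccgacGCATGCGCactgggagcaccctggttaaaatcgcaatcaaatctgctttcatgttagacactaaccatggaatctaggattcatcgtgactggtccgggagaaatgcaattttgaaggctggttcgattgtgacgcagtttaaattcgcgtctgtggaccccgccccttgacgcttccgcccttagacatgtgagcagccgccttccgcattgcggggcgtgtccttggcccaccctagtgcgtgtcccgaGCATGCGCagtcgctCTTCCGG
Mrpl17, chr7:105811038-105811337, minus strand: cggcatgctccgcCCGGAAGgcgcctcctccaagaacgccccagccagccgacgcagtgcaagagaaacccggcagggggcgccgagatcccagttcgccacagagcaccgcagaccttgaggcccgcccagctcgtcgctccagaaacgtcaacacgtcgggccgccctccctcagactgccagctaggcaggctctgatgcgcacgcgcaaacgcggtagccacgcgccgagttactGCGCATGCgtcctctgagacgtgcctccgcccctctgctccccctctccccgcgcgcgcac
Mrps12, chr7:28741772-28742071, minus strand: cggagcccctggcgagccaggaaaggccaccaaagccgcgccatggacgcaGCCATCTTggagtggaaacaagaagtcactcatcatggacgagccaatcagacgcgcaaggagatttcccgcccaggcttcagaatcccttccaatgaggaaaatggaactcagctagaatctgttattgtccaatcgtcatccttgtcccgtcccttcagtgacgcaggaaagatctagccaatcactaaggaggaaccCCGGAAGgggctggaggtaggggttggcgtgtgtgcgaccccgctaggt
Mrps22, chr9:98601630-98601929, minus strand: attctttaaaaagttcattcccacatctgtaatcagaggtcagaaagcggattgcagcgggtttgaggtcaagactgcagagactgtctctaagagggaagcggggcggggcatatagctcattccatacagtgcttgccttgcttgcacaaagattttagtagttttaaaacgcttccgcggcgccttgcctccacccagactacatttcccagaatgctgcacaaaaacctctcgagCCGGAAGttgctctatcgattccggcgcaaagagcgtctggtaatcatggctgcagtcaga
Mrpl52, chr14:54426659-54426958, plus strand: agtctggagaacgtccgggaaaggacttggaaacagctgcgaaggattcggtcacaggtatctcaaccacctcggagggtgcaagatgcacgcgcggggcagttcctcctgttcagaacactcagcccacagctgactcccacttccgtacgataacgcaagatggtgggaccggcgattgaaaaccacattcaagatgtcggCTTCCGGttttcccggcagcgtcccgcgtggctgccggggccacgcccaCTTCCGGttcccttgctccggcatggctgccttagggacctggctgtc
Mrpl46, chr7:78783040-78783339, minus strand: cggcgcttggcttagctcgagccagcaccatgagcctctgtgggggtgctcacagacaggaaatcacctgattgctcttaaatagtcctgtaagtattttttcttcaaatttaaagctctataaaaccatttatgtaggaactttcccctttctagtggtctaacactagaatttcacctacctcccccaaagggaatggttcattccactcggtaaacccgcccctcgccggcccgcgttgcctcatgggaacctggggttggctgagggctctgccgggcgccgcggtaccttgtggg
Mrps11, chr7:78782881-78783180, plus strand: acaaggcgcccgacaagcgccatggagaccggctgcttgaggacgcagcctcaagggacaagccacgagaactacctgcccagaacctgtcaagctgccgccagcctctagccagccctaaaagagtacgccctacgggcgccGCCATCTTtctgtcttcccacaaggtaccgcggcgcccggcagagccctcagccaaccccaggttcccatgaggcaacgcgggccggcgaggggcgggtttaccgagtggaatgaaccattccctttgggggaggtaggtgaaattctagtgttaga

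At least 1 of these 3 motifs was found in 35 of the 67 promoters (52.2%), against 23.9% of the 10131 promoters of tested genes and 13.8% of all 27025 promoters. The ETS letters were in 23 promoters of the family (34.3%), against 16.8% of tested genes and 9.12% of all promoters. The YY1 letters were in 11 (16.4%, against 4.42% and 2.88%), as in Mrps12 and Mrps11. The NRF1 letters, which overlap their own reverse complement, were in 8 (11.9%, against 4.86% and 2.8%), as in Mrps18b and Mrpl17. The other 4 of the 7 motifs searched had these shares: GGGCGG (SP/KLF) was in 50.7% of the family and 60.7% of tested genes, CCAAT (NF-Y) in 38.8% and 37.3%, CACGTG (E-box) in 7.46% and 9.65%, and TATAAA, a core promoter element, in 5.97% and 7.58%. Among 44 promoters of cytosolic ribosomal protein genes, 36.4% held ETS letters, 4.55% NRF1 and 2.27% YY1 letters. Among 63 promoters of respiratory chain and ATP synthase genes, 25.4% held ETS, 15.9% NRF1 and 14.3% YY1 letters. High shares of these letters were thus not particular to the family. A match describes these windows only. Another gene started on the opposite strand within 1000 bases upstream for 25 of the 67 genes (37.3%), against 17.9% of tested genes. Such neighbours included Sars2, the mitochondrial seryl-tRNA synthetase, 147 bases from Mrps12, and Twnk, the mitochondrial DNA helicase, 116 bases from Mrpl43.

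No gene of the family passed the test between stimulated and unstimulated cDC1. With limma's moderated test over all genes and Benjamini-Hochberg adjustment, 0 of 76 were called at an adjusted p under 0.05, while 2 of 12780 genes (0.0156%) were called higher in stimulated cells and 0 (0.0%) lower. The limma adjusted p was 0.99997 for each of the 76, and 0 of them had an unadjusted p under 0.05, against 3.49% of all genes. With a block for the replicate number, limma gave 8 of them an unadjusted p under 0.05, against 10.4% of all genes. The smallest unadjusted p from limma was 0.0625, for Mrpl50.

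Differences below are stimulated minus unstimulated means of log2 intensity, each with its 95% interval from limma, and 1 unit is a doubling. They ran from -0.39 (Mrps22) to 0.80 (Mrps28), with a median of 0.10 over the family and 0.0049 over all genes. The median turned to -0.0045 without unstimulated sample 1 and to -0.03 without stimulated sample 3, and was 0.23 without stimulated sample 1. Its sign thus changed with the array left out. The family was low on sample 1 of both groups, so leaving out sample 1 of a single group also unbalances the comparison. The difference was above 0 for 49 genes (64.5%) and below 0 for 27, where 51.0% of all genes were above 0. The interval held 0 for all 76 genes in this fit, which left out the replicate numbers. The distance from the difference to either bound had a median of 0.61 and ran from 0.35 (Mrpl3) to 1.34 (Mrpl42). For 58 genes the interval lay within 1 unit of 0 on both sides, and for the other 18 it reached 1 unit or more.

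The groups did not overlap, with stimulated cells higher, for 1 gene, Mrpl55 (3.68% of all genes), and with stimulated cells lower for 0 (3.46% of all genes). A difference of at least 1.5-fold was seen upward for 1 gene, Mrps28 (3.32% of all genes), with Mrpl50 just under that limit, and downward for 0 (1.77% of all genes). Both counts depended on single arrays. Leaving out 1 array gave from 2 to 7 genes upward, the most without stimulated sample 1, and 1 gene downward without unstimulated sample 1 or stimulated sample 2. Without unstimulated samples 1 to 3 the upward counts were 3 (8.41% of all genes), 5 (2.18%) and 6 (3.28%). Without stimulated samples 1 to 3 they were 7 (2.73% of all genes), 4 (8.07%) and 2 (3.35%). The share over all genes thus moved with the array left out as well. Mrps28 itself was at 0.41, under the 1.5-fold limit, without stimulated sample 2. Each array gives the RNA of a pool of sorted cells, so fewer cells expressing a gene and less RNA per cell cannot be told apart.

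**Figure D1:**
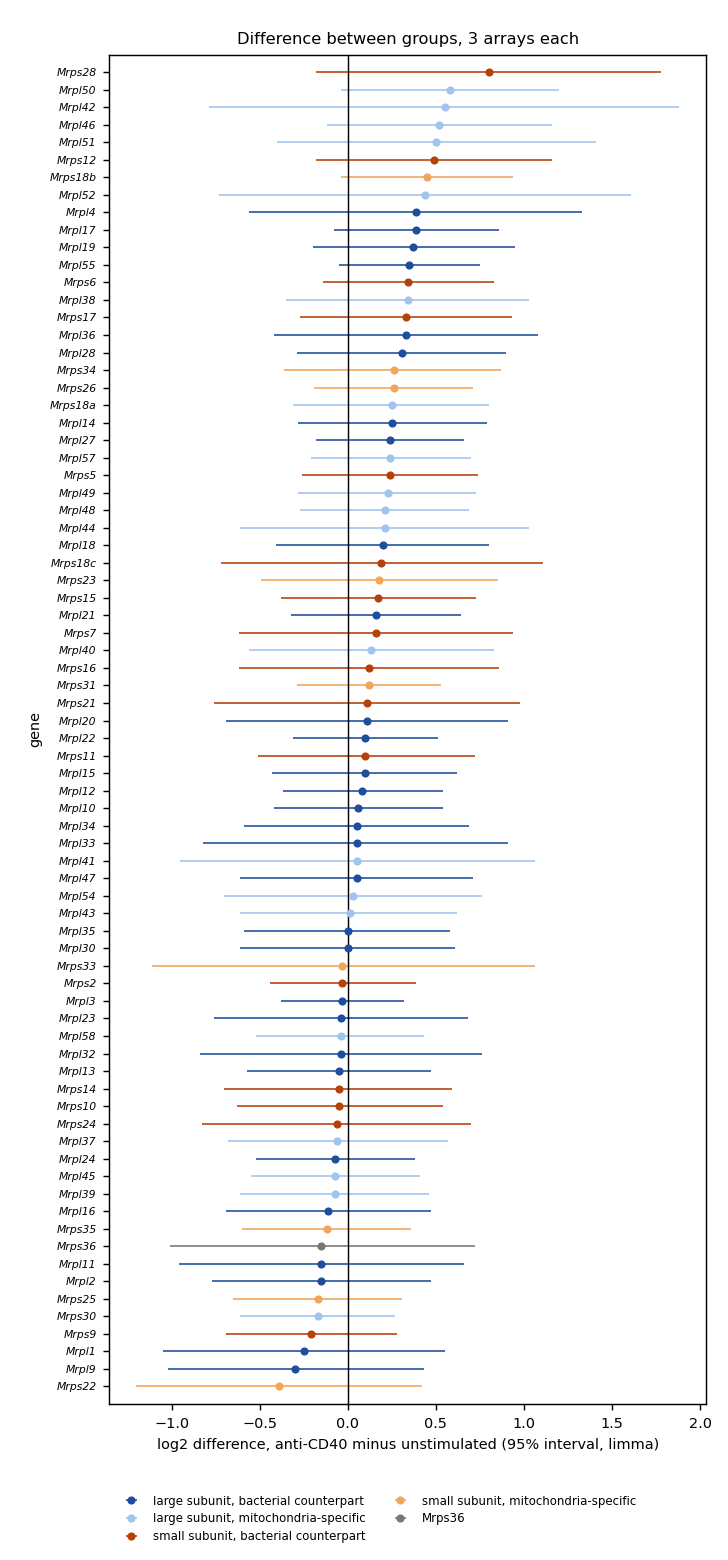
Difference in log2 intensity between 3 stimulated and 3 unstimulated samples (x axis) for each of the 76 genes (y axis, ordered by difference), as points with 95% intervals from limma, coloured by subunit and origin. Every interval crosses 0, and the points run from -0.39 (Mrps22) to 0.80 (Mrps28).

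Among the large-subunit proteins, 33 of 50 differences were above 0, with a median of 0.09. Those with a bacterial counterpart had a median of 0.05 (18 of 30 above 0), and those specific to mitochondria a median of 0.21 (15 of 20 above 0). No test was made of the difference between these classes.

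Mrpl50, a mitochondria-specific protein of the large subunit, had log2 intensities of 6.68, 7.00 and 6.09 in unstimulated and 7.11, 7.42 and 6.98 in stimulated samples 1 to 3. Unstimulated sample 2 lay just above stimulated sample 3, so the groups overlapped. The difference was 0.58 (95% interval -0.04 to 1.20, limma adjusted p = 0.99997).

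Mrpl55, the relative of bacterial L31, measured 7.03, 6.84 and 7.01 without and 7.14, 7.28 and 7.50 with stimulation. All 3 stimulated samples were above all 3 unstimulated ones, and the spread within groups was among the smallest of the family (pooled SD 0.15). The difference of 0.35 still had an interval that held 0 (-0.05 to 0.75, limma adjusted p = 0.99997).

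Mrpl17, whose bacterial relative L17 lies near the exit of the peptide tunnel, measured 5.10, 4.63 and 4.95 without and 5.07, 5.48 and 5.30 with stimulation. Only unstimulated sample 1 and stimulated sample 1 crossed. The difference was 0.39 (-0.08 to 0.86).

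Mrpl46, a mitochondria-specific protein, measured 6.81, 6.41 and 6.91 without and 7.36, 6.70 and 7.62 with stimulation, a difference of 0.52 (-0.12 to 1.16). Stimulated sample 2 fell inside the unstimulated range. Mrps11, which shares the promoter region shown above, differed by 0.10 (-0.51 to 0.72), with 6.35 in stimulated sample 2 and values from 5.44 to 5.71 on the other 5 arrays. The array on which Mrps11 was highest was thus the lowest of the stimulated arrays for Mrpl46.

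At the other end of the large subunit, Mrpl9, the relative of bacterial L9, measured 7.13, 7.63 and 6.56 without and 7.20, 6.53 and 6.71 with stimulation. The unstimulated samples alone spanned the stimulated values almost entirely, and the difference was -0.30 (-1.02 to 0.43). Mrpl1, whose bacterial relative forms the mobile L1 stalk, measured 5.73, 6.47 and 5.20 without and 5.25, 5.91 and 5.48 with stimulation, a difference of -0.25 (-1.05 to 0.55). Its stimulated values all lay within the unstimulated range, and leaving out unstimulated sample 2 turned the difference to 0.08.

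Mrps30, a large-subunit protein in spite of its symbol, measured 5.38, 5.23 and 5.58 without and 5.05, 5.46 and 5.17 with stimulation, a difference of -0.17 (-0.61 to 0.27). The groups overlapped over most of their ranges.

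Mrpl12 forms the flexible stalk that recruits translation factors and has also been reported to bind the mitochondrial RNA polymerase. It measured 7.02, 7.44 and 7.17 without and 7.11, 7.51 and 7.27 with stimulation, a difference of 0.08 (-0.37 to 0.54). Within each group sample 2 was the highest. Mrpl44, a protein with a ribonuclease III-like fold, measured 5.74, 5.15 and 6.51 without and 5.97, 5.74 and 6.32 with stimulation. The stimulated samples again lay inside the unstimulated range, and the difference was 0.21 (-0.61 to 1.03).

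Among the small-subunit proteins, 16 of 25 differences were above 0, with a median of 0.12. Those with a bacterial counterpart had a median of 0.14 (11 of 16 above 0), and those specific to mitochondria also 0.12 (5 of 9 above 0).

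Mrps28, the small-subunit protein with the largest difference, measured 5.35, 5.03 and 5.34 without and 5.08, 6.84 and 6.21 with stimulation. Stimulated samples 2 and 3 were above every unstimulated sample, and stimulated sample 1 was below all but one of them. The difference of 0.80, or 1.75-fold, had an interval from -0.18 to 1.78 (limma adjusted p = 0.99997). The SD was 0.18 among unstimulated and 0.89 among stimulated samples (n = 3 each).

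Mrps18b, one of 3 genes with an Mrps18 symbol, measured 5.28, 5.50 and 5.12 without and 6.05, 5.47 and 5.74 with stimulation. Unstimulated sample 2 lay just above stimulated sample 2, the only crossing pair. The difference was 0.45 (-0.04 to 0.94). The others, Mrps18a of the large and Mrps18c of the small subunit, differed by 0.25 (-0.31 to 0.80) and 0.19 (-0.72 to 1.11).

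Mrps12, the relative of the decoding-centre protein S12, measured 7.04, 7.61 and 7.66 without and 7.55, 7.79 and 8.44 with stimulation. Stimulated sample 1 lay below unstimulated samples 2 and 3, and the difference was 0.49 (-0.18 to 1.16). Sars2, its divergent neighbour, differed by 0.33. Mrps34, needed for a stable small subunit, measured 6.58, 6.34 and 6.71 without and 6.46, 6.60 and 7.34 with stimulation. Stimulated sample 3 alone stood above the unstimulated range. The difference was 0.26 (-0.36 to 0.87), and -0.01 without stimulated sample 3.

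Mrps22, a mitochondria-specific protein whose human gene is known from inherited mitochondrial disease, had the lowest statistic of the family. It measured 6.25, 7.29 and 6.80 without and 5.86, 6.87 and 6.44 with stimulation. In both groups sample 1 was the lowest and sample 2 the highest, and each stimulated sample sat below the unstimulated one of its number. The groups overlapped widely, and the difference was -0.39 (-1.20 to 0.42, limma adjusted p = 0.99997).

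Mrps9, the relative of bacterial S9, measured 6.09, 6.24 and 6.61 without and 5.96, 6.00 and 6.36 with stimulation, a difference of -0.21 (-0.69 to 0.28). Mrps25 measured 5.95, 6.32 and 6.36 without and 5.86, 5.94 and 6.32 with stimulation, a difference of -0.17 (-0.65 to 0.31). In both genes stimulated sample 3 lay among the unstimulated values.

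Mrps36 measured 5.70, 6.92 and 6.38 without and 5.70, 6.17 and 6.70 with stimulation. Sample 1 had the same value in both groups, and the difference was -0.15 (-1.01 to 0.72).

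**Figure D2:**
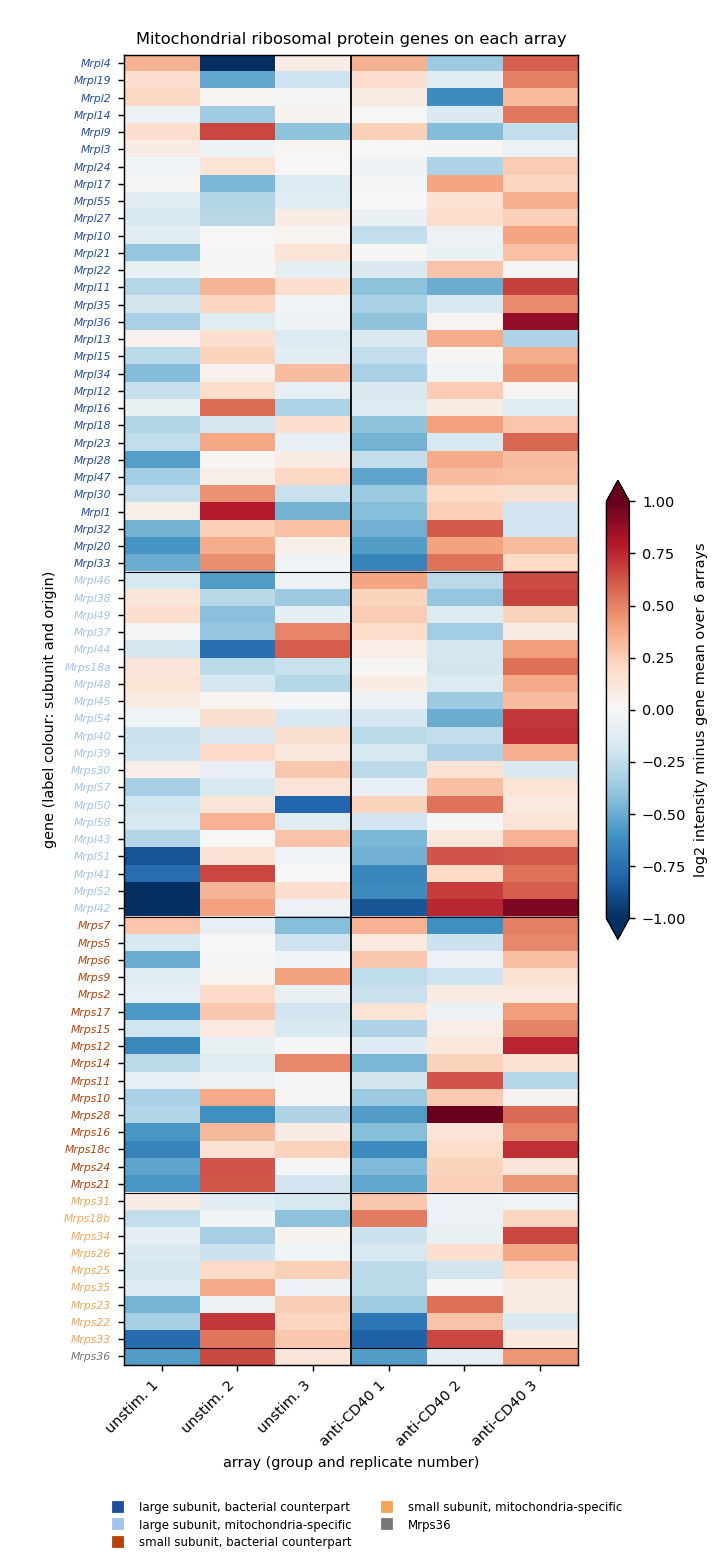
Log2 intensity of each of the 76 genes (rows, grouped by subunit and origin) on each of the 6 arrays (columns), minus the gene's mean over the arrays, with colours saturating at 1 and -1. Many rows are blue in the first column of both groups, and many are red in the last column of the stimulated group only. The unstimulated and stimulated columns numbered 1, and those numbered 2, resemble each other in many rows.

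The genes of the family often shared the order of the arrays within a group. Array 1 was the lowest of its group in both groups for 38 of the 76 genes (50%), against 23.4% of all genes, and the highest in both for 2 (2.63%), against 26.1%. No label says whether arrays of the same number shared a day or an animal.

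The family's median deviation from each gene's own mean was -0.20, 0.03 and -0.02 on unstimulated arrays 1 to 3 and -0.22, 0.05 and 0.32 on stimulated arrays 1 to 3. Array 1 was low in both groups, and stimulated array 3 stood highest. Over all genes these medians stayed between -0.03 and 0.02.

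Array 2 minus array 1 had a median of 0.29 in each group over the family, and of -0.05 and -0.01 over all genes. It was above 0 in both groups for 44 of 76 genes (57.9%), against 35.6% of all genes. It was above 1 in both for 5 of the 76, against 81 of all 12780 genes. Across the 76 genes the unstimulated and the stimulated values of this array difference had a Pearson correlation of 0.63, and across all genes of 0.74. These are descriptions across genes, which share their arrays and are not independent replicates.

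The 4 genes with the largest spread within groups carried this pattern. Mrpl42 measured 5.20, 6.79 and 6.32 without and 5.52, 7.13 and 7.31 with stimulation (pooled SD 0.91). Its difference between groups was 0.55, with an interval from -0.79 to 1.88. On array 1 it lay more than 1 unit below array 2 in either group.

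Mrpl52 measured 5.87, 7.38 and 7.21 without and 6.40, 7.73 and 7.64 with stimulation, a difference of 0.44 (-0.73 to 1.61). For Mrpl52, as for Mrpl42, each stimulated sample sat above the unstimulated one of its number. Mrps33 measured 7.58, 8.89 and 8.62 without and 7.54, 9.02 and 8.46 with stimulation, a difference of -0.03 (-1.11 to 1.06). Of its stimulated samples, only sample 2 sat above the unstimulated one of its number. Mrpl52 and Mrps33, like Mrpl42, encode mitochondria-specific proteins and were lowest on array 1 of each group.

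Mrpl41, also mitochondria-specific and reported to bind the survival factor Bcl-2, measured 7.31, 8.74 and 8.07 without and 7.42, 8.27 and 8.61 with stimulation. Array 1 was again the low one, and the difference between groups was 0.05 (-0.95 to 1.06).

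The steadiest gene was Mrpl3, the relative of a bacterial protein that reaches towards the catalytic centre, with 7.07, 6.95 and 7.02 without and 7.00, 7.01 and 6.94 with stimulation (pooled SD 0.05). No array stood apart, and its difference of -0.03 had the narrowest interval of the family (-0.38 to 0.32). Mrpl22, whose bacterial relative lines the peptide tunnel, measured 5.04, 5.13 and 5.03 without and 4.97, 5.40 and 5.13 with stimulation, a difference of 0.10 (-0.31 to 0.51). Mrps31 measured 5.01, 4.82 and 4.77 without and 5.20, 4.87 and 4.89 with stimulation, a difference of 0.12 (-0.29 to 0.53). In Mrpl3 array 1 was the lowest of neither group, and in Mrps31 it was the highest of each.

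**Figure D3:**
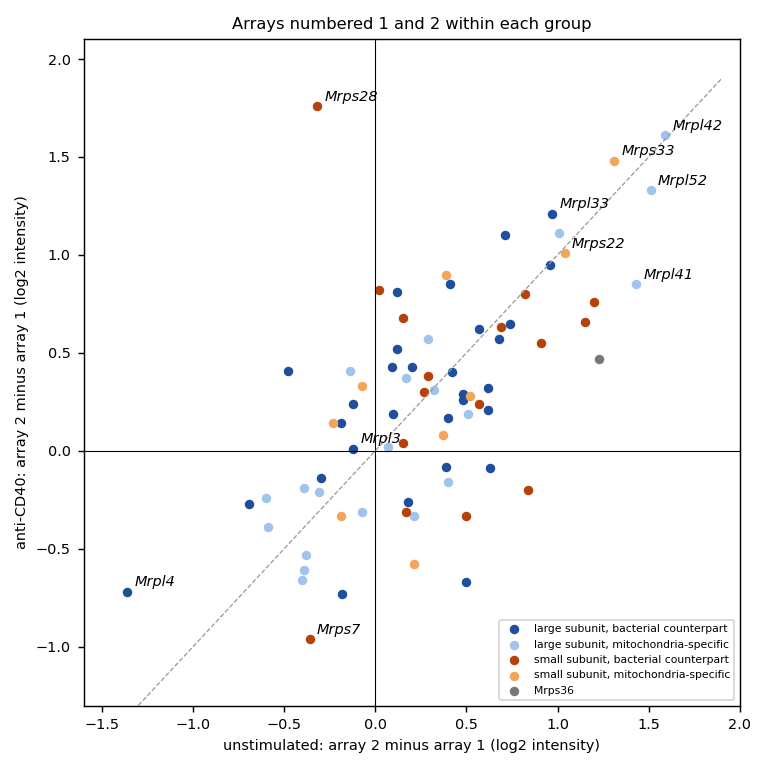
Array 2 minus array 1 in log2 intensity within the unstimulated (x axis) and within the stimulated group (y axis), 1 point for each of the 76 genes, with equality as a dashed line. Of the 76 points, 44 lie above 0 on both axes, led by Mrpl42, Mrps33 and Mrpl52, and Mrps28 lies far off the line.

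Other nuclear genes for mitochondrial and cytosolic protein complexes were set beside the family. Array 1 was lowest in both groups for 73.2% of 56 cytosolic ribosomal protein genes and for 70.5% of 78 genes of the respiratory chain and ATP synthase. Between groups, 61 of those 78 respiratory genes (78.2%) had a difference above 0, with a median of 0.11, and 1 had an unadjusted p under 0.05. Of the 56 cytosolic ribosomal protein genes, 21 (37.5%) had a difference above 0, with a median of -0.02. In both lists 0 genes were called.

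The 2 mitochondrially encoded messages with a named probe set of their own, which mitochondrial ribosomes translate, showed the array pattern too. COX2 measured 9.83, 11.73 and 11.23 without and 9.92, 11.28 and 11.03 with stimulation, and ND3 measured 6.68, 8.31 and 8.41 without and 7.24, 8.23 and 8.32 with stimulation. Array 1 was the low one in each group for both. Between groups COX2 differed by -0.19 (-1.46 to 1.09) and ND3 by 0.13 (-1.07 to 1.33).

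**Figure D4:**
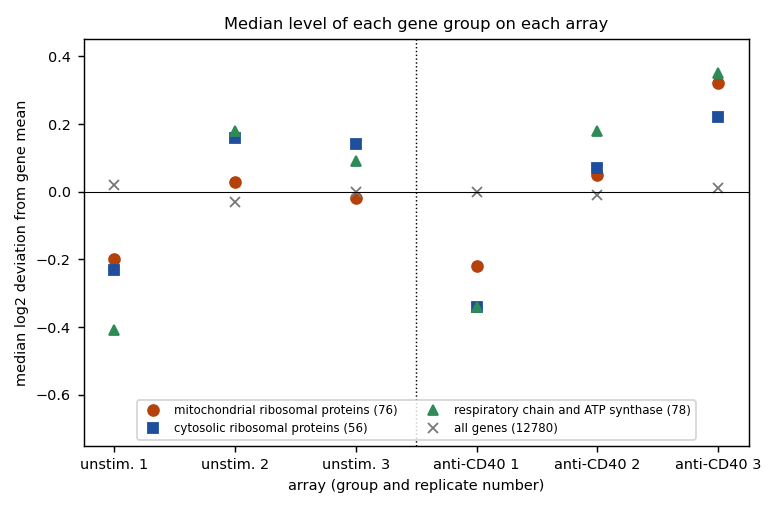
Median deviation of log2 intensity from each gene's mean (y axis) on each array (x axis) for 76 mitochondrial ribosomal protein genes, 56 cytosolic ribosomal protein genes, 78 respiratory chain and ATP synthase genes and all 12780 genes. Array 1 of both groups is the lowest for all 3 gene groups, while the medians over all genes stay near 0.

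Properties of the arrays and markers of other cells were measured beside these results. The interquartile range of log2 intensity was widest on array 1 of each group (2.19 and 2.31) and narrowest on array 2 (1.74 and 1.75), with array 3 between (1.92 and 2.03). Of the 5 T cell markers, all were measured and all differed upward without passing. They were dim, with unstimulated means from 4.43 (Cd3d) to 5.67 (Cd5). Their summed intensity was 154, 137 and 228 without and 158, 206 and 298 with stimulation, highest on stimulated array 3, where the family was also highest. Among the stimulated arrays, Cd3e was lowest on array 3 (5.59), while the other T cell markers were highest there. Of the markers of other cells, 1 of 4 for B cells (Cd79b), 1 of 4 for macrophages (Csf1r), 1 of 2 for keratinocytes (Krt14) and 0 of 2 for natural killer cells were measured, with mean log2 intensities from 4.64 to 5.30. Of 9 cDC1 markers, 8 were measured, 5 with a difference above 0 and 3 below, from -0.26 (Clec9a) to 0.64 (Irf8). Irf8 (11.00), Batf3 (9.35), Cadm1 (7.43) and Clec9a (6.67) were the brighter ones by unstimulated mean, while Naaa (5.18), Wdfy4 (4.91), Itgae (4.76) and Xcr1 (4.44), which was used in the sort, were dim. Of the 6 migratory dendritic cell markers, all were measured, 4 with a difference above 0, from -0.78 (Cd74) to 1.01 (Cd40), and 0 were called. Their array 2 minus array 1 had a median of -0.72 without and -0.61 with stimulation, opposite in sign to that of the family. The part of array range, of dendritic cell markers or of other cells in the family's values was not tested.

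For 7 of the 76 genes a second, dimmer probe set carried the same symbol alone. The gap between the differences of the 2 probe sets was at most 0.05 for Mrpl23, Mrps33 and Mrps36 and was 0.15 for Mrpl27, 0.18 for Mrps5 and 0.19 for Mrpl51. It was widest for Mrpl41, whose dimmer probe set measured 5.68, 6.35 and 5.80 without and 5.95, 6.48 and 6.51 with stimulation. That probe set gave a difference of 0.38, against 0.05 for the brighter one, so the size of the value depended on the probe set. For Mrpl51 the dimmer and the brighter probe set gave 0.69 and 0.50, and the brighter one, which stood for the gene, did not pass. RefSeq also lists 6 pseudogene symbols for the family, among them copies of Mrpl23, Mrpl27, Mrpl48 and Mrps36. No source used here gives the position of a probe set, so the values of these genes are uncertain as to which copy they measure.

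**Figure D5:**
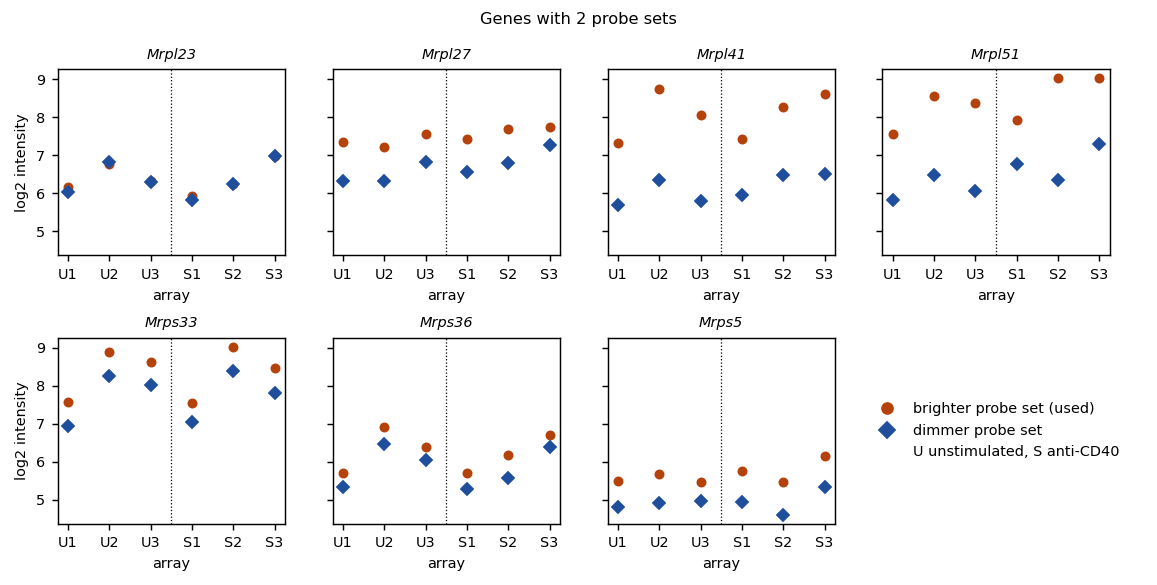
Log2 intensity (y axis) on the 6 arrays (x axis, U unstimulated and S stimulated) for the 7 genes with 2 probe sets, the brighter as circles and the dimmer as diamonds. The 2 probe sets follow each other closely for Mrpl23, Mrps33 and Mrps36, and for Mrpl41 the difference between groups is 0.38 on the dimmer and 0.05 on the brighter one.

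The remaining machinery of mitochondrial translation was described from lists chosen by role, and 0 genes in them were called. Of 7 mitoribosomal proteins with other symbols, 4 were measured and all 4 had a difference above 0, from 0.08 (Chchd1) to 0.26 (Dap3). Dap3, a GTP-binding protein of the small subunit, measured 6.61, 6.16 and 6.47 without and 6.86, 6.26 and 6.91 with stimulation. Its groups overlapped through stimulated sample 2.

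Of 16 mitochondrial translation factors, 14 were measured, 6 with a difference above 0 and 8 below. Mtif3, the initiation factor that acts on the small subunit, measured 7.37, 6.66 and 6.95 without and 8.30, 7.37 and 8.60 with stimulation. Stimulated sample 2 equalled unstimulated sample 1 at this rounding, the groups did not overlap before rounding, and the other stimulated samples stood higher. Of all genes, 3.68% had no overlap in this direction. The difference was 1.10 (0.28 to 1.91), the limma unadjusted p was 0.0151, and the limma adjusted p was 0.99997, so it did not pass. The elongation factors Tufm and Gfm1 differed by 0.25 (-0.92 to 1.42) and -0.32 (-0.89 to 0.24).

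Of 28 assembly factors, 25 were measured, 14 with a difference above 0. Mettl17, which acts in the assembly of the small subunit, measured 5.67, 5.45 and 5.59 without and 5.84, 6.00 and 6.29 with stimulation (difference 0.47, 0.05 to 0.90). Nsun4, a ribosomal RNA methyltransferase needed to join the subunits, measured 5.16, 5.78 and 5.20 without and 5.01, 4.64 and 4.59 with stimulation (difference -0.63, -1.17 to -0.09). The groups of both genes did not overlap, in opposite directions, and both had a limma adjusted p of 0.99997. Of the 25, 2 did not overlap with stimulated cells higher, Mettl17 and Ybey (0.39, -0.07 to 0.85), and 1 with stimulated cells lower. Over all genes these shares were 3.68% and 3.46%.

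Of 17 mitochondrial tRNA synthetases, 15 were measured, with 7 differences above 0, from 0.44 for Iars2 (-0.16 to 1.03) to -0.56 for Ears2 (-1.12 to 0.00). Of 15 genes for mitochondrial transcription and its nuclear regulators, 12 were measured, with 6 differences above 0. Tefm, the elongation factor of mitochondrial transcription, had the largest statistic, at 0.83 (-0.11 to 1.76), and Nrf1 the lowest, at -0.40 (-0.96 to 0.16). Gabpa differed by -0.05 (-1.01 to 0.91) and Yy1 by -0.11 (-0.61 to 0.38). The 35 family genes with NRF1, ETS or YY1 letters in the promoter window had a median difference of 0.12, and the 32 without them a median of 0.05. By motif the medians were 0.05 for the 8 genes with NRF1 letters, 0.18 for the 23 with ETS letters and 0.16 for the 11 with YY1 letters. Whether these medians differ was not tested.

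Of 14 genes for import, chaperones and proteases, all were measured, with 8 differences above 0. They included Clpp at 0.24 (-0.63 to 1.11) and its partner Clpx at -0.60 (-1.23 to 0.02). Of 9 genes chosen as general mitochondrial markers, 5 had a difference above 0. Most were bright, but Vdac1 was dim, with a mean of 4.88 without stimulation, and Tomm20 is in the import list as well. Slc25a4, the adenine nucleotide carrier, measured 9.98, 10.03 and 10.13 without and 10.31, 10.18 and 10.41 with stimulation (difference 0.25, -0.11 to 0.62). Its groups did not overlap, as for 3.68% of all genes in this direction. Tomm20, an import receptor of the outer membrane, differed by -0.35 (-1.21 to 0.50).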

How the data were processed

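RNA from 3 unstimulated and 3 stimulated cDC1 samples was hybridised to 1 array each. Affymetrix Expression Console and RMA (background correction, quantile normalisation, probe set summary) are named in the submitters' processing notes, without versions. The authors deposited linear intensities for 17551 probe sets, from 6.97 to 13701, with every probe set at or above 20.001 in the higher group geometric mean. No family gene had an array under 20. In the platform annotation 13963 probe sets had 1 symbol, 970 several and 2618 none. The brightest probe set stood for each of 12780 genes. The log2 of each deposited intensity was fitted with limma 3.58.1 in R 4.3.3 (lmFit, eBayes, two-sided, no covariates), and a gene was called at an adjusted p under 0.05. The number of arrays limits the precision. The fit was also run on simulated data whose noise was independent between genes, without the array pattern that genes share here. That run cannot show how the fit behaves with such a pattern.

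Named genes were those called, the 6 with the largest moderated statistic in each direction, the 4 most and 4 least variable, and Mrpl12, Mrpl44, Mrpl41, Mrps12, Mrps27 (not analysed here), Mrps34 and Mrps36. From each related list they were those called, the extreme in each direction and up to 2 well-known genes. Mrps11, Mrps18a, Mrps18c, the divergent neighbours and the probe set pairs were named as relatives of these. The members and lists were chosen with earlier results of these data known. Alternatives were an intensity-trended robust variance, leaving out dim genes, repeated quantile normalisation, median centring, array weights, a replicate block, an array's interquartile range as covariate, leaving out each array, mean probe sets, other thresholds and a plain test. Python 3.11.15 with matplotlib 3.10.9 drew the plots.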

Additional observations from a re-analysis of the deposited data

How the results depend on the processing

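The count of family genes called was 0 under each of the 15 alternative fits and both other thresholds. The smallest limma adjusted p of a family gene under any of them was 0.124, with array weights. Those weights were 6.138 for unstimulated and 2.196 for stimulated sample 3, and from 0.4755 to 0.5899 for the other arrays. Each value with array weights therefore rests mostly on sample 3 of each group. At an unadjusted p under 0.05, limma gave 18 family genes with array weights (19.5% of all genes), 8 with the replicate block (10.4%) and 6 with the interquartile range as covariate (7.91%). The family's median difference was 0.05 after a second quantile normalisation, 0.06 after median centring, 0.17 with array weights and 0.16 with the interquartile range. Leaving out 1 array moved it between -0.03 and 0.23, below 0 without unstimulated sample 1 or stimulated sample 3, and the count above 0 between 34 and 62. At least 1.5-fold upward were 7 family genes with array weights (7.47% of all genes) and 5 with the interquartile range (2.28%). Over all genes, 2 calls became 6 after quantile normalisation, 4 after centring, 46 with array weights, 38 with the replicate block, 15 with the interquartile range, and 0 at an adjusted p under 0.01, with the plain test or without any 1 array. Same-numbered samples deviated together by correlations of 0.73, 0.59 and 0.06 over all genes, where unstimulated sample 3 followed stimulated sample 2 best (0.19). Over the family alone they were 0.74, 0.43 and 0.24, and each sample followed its own number best. Over all genes, unstimulated sample 1 and stimulated sample 2 deviated oppositely (-0.69), as did unstimulated sample 2 and stimulated sample 1 (-0.6). These values do not settle whether the numbers pair the samples, and no label says so. The main fit left the numbers out, so its intervals and p-values include any spread that same-numbered arrays share. With the replicate block the smallest limma adjusted p of a family gene was 0.269. Of 24 named family genes, 13 kept their direction in each fit they entered (Mrpl17 and Mrps31 were not in the fit without dim genes), though not their size. Leaving out 1 array gave 0.41 to 1.29 for Mrps28, 0.10 to 1.12 for Mrpl42, 0.33 to 0.79 for Mrpl50, 0.33 to 0.78 for Mrpl46, 0.23 to 0.68 for Mrps12, 0.01 to 0.20 for Mrps31, -0.66 to -0.13 for Mrps22, -0.33 to -0.06 for Mrps9, -0.31 to -0.08 for Mrps25 and -0.29 to -0.08 for Mrps30. With array weights Mrpl9 turned to 0.07, Mrpl1 to 0.17, Mrpl44 to -0.16 and Mrps36 to 0.08, with the interquartile range Mrps33 to 0.20, and after quantile normalisation Mrpl41 to -0.02. Among the genes that turned, leaving out 1 array gave -0.57 to -0.03 for Mrpl9, -0.55 to 0.08 for Mrpl1, -0.04 to 0.87 for Mrpl52, -0.42 to 0.37 for Mrps33, -0.31 to 0.40 for Mrpl41, -0.06 to 0.00082 for Mrpl3, -0.02 to 0.20 for Mrpl22, -0.02 to 0.20 for Mrpl12, -0.11 to 0.57 for Mrpl44, -0.01 to 0.43 for Mrps34 and -0.46 to 0.15 for Mrps36. The cause of these turns was not tested. With 3 arrays a group, the intervals of 18 genes reach 1 unit or more, so changes of that size could not be told from 0 for them, and a missed threshold does not show that the groups were alike.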
